A study of Homo sapiens with 2 samples.

Results

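The 9 genes described here encode the hypoxia-inducible factors and the machinery that controls their stability: the HIF prolyl hydroxylases EGLN1, EGLN2 and EGLN3, the alpha subunits HIF1A, EPAS1 (HIF-2 alpha) and HIF3A, their shared partner ARNT (HIF-1 beta), the asparaginyl hydroxylase HIF1AN (FIH) and the ubiquitin ligase subunit VHL. They were taken by gene symbol from a table of 29972 human genes, and all 9 were found in it. The set was chosen by the CPM of the same 2 libraries compared below, so its values are a description and carry no test. The table compares 1 untreated tumour with 1 tumour refractory to T-DM1 (trastuzumab emtansine), an antibody against HER2 that carries a microtubule poison. Both were subcutaneous xenografts of NCI-N87, an established human gastric carcinoma line with amplified ERBB2 (HER2), in nude mice, which lack a thymus but keep macrophages, fibroblasts and vessels of their own. Per the labels, the conjugate was given once in 3 weeks over 18 weeks. With 1 library per group, no difference has a replicate check, and the labels do not say whether a library came from 1 animal or several.

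HIF works as a dimer of an alpha subunit and ARNT. In oxygen the EGLN enzymes, which need 2-oxoglutarate and iron, hydroxylate prolines of the alpha subunit, VHL binds the hydroxylated protein, and the proteasome destroys it, while FIH blocks the binding of coactivators. This control acts on protein, so the mRNA levels given here do not measure HIF activity. EGLN1 and EGLN3 are themselves HIF target genes, and in the gut epithelium HIF-2 is known for its control of iron uptake and export genes.

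Expected counts summed to 75722117 for the untreated and 59902704 for the refractory tumour. Levels are CPM, that is, counts divided by a TMM-scaled library size, and a gene was described when its higher library had at least 1 CPM, which 14167 genes did. The line was recognisable in both: ERBB2 stood at 7267 and 7975 CPM, and the 6 epithelial markers of the line, keratins 8, 18 and 19 among them, had a sum of 14404 CPM (untreated) against 13966 CPM (refractory). The table lists human genes, so it does not measure the mouse cells of the host, and whether low values of such markers hold mouse reads was not tested. Markers of other cell types were low: fibroblast markers summed to 2.97 and 2.11 CPM with COL1A2, COL3A1 and DCN at 0 counts in both libraries, endothelial markers to 2.60 and 0.287 CPM, and all 3 haemoglobin genes were at 0 counts in both. Leukocyte markers summed to 4.13 and 30.9 CPM, nearly all of it from CD68 (3.62 and 29.2 CPM), while PTPRC, which marks all leukocytes, stood at 0.0654 and 0.287 CPM.

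Among the members, EGLN3 and EPAS1 were higher in the refractory tumour, and no described member was 2-fold lower. Differences are given as log2 ratios, refractory to untreated, of CPM with a pseudocount of 1, a scale that makes the differences of low genes too small. Of the 9 members 8 were described. On that scale 2 of these 8 were at least 2-fold higher, against 9.80% of all described genes, 0 were at least 2-fold lower, against 11.0%, and 6 lay between. The members were chosen with these values known, so nothing is read from the contrast with the background. The median log2 was 0.06 over the 8 described members and 0.03 over all described genes. In bulk tumours, fewer cells of a type and less RNA per cell cannot be told apart.

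**Figure D1:**
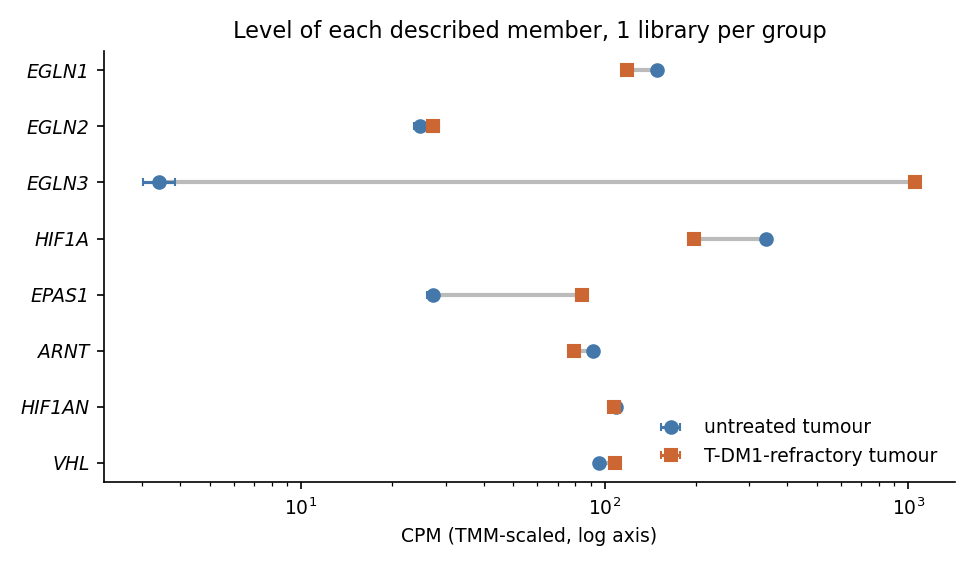
CPM of the 8 described members on a log axis, with circles for the untreated and squares for the refractory tumour and exact 95% Poisson intervals that cover counting error only and are mostly narrower than the symbols. The long bar of EGLN3 runs from 3.41 to 1054 CPM, EPAS1 lies to the right of its untreated level, HIF1A to the left, and the other 5 pairs lie close together.

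Among the prolyl hydroxylases EGLN3 stood apart. EGLN3 (chromosome 14, coding span 33925891 to 33950752, GRCh38) had 261 counts in the untreated and 62504 in the refractory library, or 3.41 and 1054 CPM. It was a low gene in the first tumour and an abundant one in the second. The ratio was 309 (95% interval 273 to 350, exact for 2 Poisson counts and covering counting error only). The log2 of this ratio was 8.27. With 1 CPM added to both levels it was 7.90, which ranked 1 among all described genes. EGLN1 (chromosome 1, 231366411 to 231421888), the enzyme that sets HIF alpha levels in normal oxygen in most cells, had 11366 and 7028 counts and stood at 149 and 118 CPM. It was thus slightly lower in the refractory tumour, by a factor of 1.25 (95% interval 1.22 to 1.29). EGLN2 (chromosome 19, 40800573 to 40807864), the nuclear member of the family, had 1891 and 1614 counts and stood at 24.7 and 27.2 CPM, a ratio of 1.10 (95% interval 1.03 to 1.18). EGLN1 and EGLN2 therefore differed by far less than the 2-fold mark, in opposite directions.

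The promoters of the 3 hydroxylase genes and of EPAS1 are shown because these genes belong to one pathway and only EGLN3 and EPAS1 passed the 2-fold mark. Each line gives the 250 bases before the annotated start from RefSeq (GRCh38.p14), 5′ to 3′ on the strand of the gene, with ACGTG or GCGTG, the core letters of hypoxia response elements, in capitals on either strand. The windows are EGLN1 at chr1:231422288-231422537 (minus strand), EGLN2 at chr19:40798941-40799190 (plus), EGLN3 at chr14:33951075-33951324 (minus) and EPAS1 at chr2:46297157-46297406 (plus).
EGLN1: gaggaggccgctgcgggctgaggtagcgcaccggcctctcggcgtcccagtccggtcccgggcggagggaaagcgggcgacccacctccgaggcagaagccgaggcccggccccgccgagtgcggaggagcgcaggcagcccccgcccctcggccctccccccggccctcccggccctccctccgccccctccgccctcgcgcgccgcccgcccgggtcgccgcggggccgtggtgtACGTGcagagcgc
EGLN2: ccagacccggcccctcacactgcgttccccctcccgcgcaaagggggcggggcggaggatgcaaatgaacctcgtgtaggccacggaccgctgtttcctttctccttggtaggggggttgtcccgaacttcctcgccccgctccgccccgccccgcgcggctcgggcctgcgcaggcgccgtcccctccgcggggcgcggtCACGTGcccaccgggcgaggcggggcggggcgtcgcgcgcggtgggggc
EGLN3: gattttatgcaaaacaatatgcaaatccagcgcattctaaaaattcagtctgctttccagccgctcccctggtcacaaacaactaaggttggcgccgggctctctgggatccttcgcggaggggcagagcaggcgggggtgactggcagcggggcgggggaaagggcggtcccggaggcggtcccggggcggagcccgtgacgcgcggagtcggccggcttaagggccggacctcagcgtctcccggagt
EPAS1: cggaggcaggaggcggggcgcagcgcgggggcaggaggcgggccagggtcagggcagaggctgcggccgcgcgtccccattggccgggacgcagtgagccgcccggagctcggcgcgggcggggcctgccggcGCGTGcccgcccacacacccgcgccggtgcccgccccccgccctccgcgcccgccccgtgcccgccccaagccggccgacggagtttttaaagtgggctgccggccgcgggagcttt

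The core motif was searched on both strands in windows that ran from 250 bases before to 50 after each start. EGLN1 held 1 ACGTG, from 13 to 9 bases before the start. The first of the 2 EGLN2 windows held CACGTG, which reads ACGTG on both strands and counts as 2 overlapping matches, from 49 to 44 bases before the start. EPAS1 held 1 GCGTG and so did the first HIF1A window, while the first of 3 HIF3A windows held 3. The windows of EGLN3, ARNT and HIF1AN held neither motif, which says only that these letters are not in this window. Of 35116 windows of the same length in the RefSeq table, 48.4% held at least 1 of the motifs (ACGTG in 21.4% and GCGTG in 36.5%), so a match is common. Windows were found for 8 members, all but VHL.

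Compared per length, the leading member of the hydroxylase family was not the same in the 2 tumours. FPKM, the deposited level per kilobase, was 34.4 for EGLN1, 13.3 for EGLN2 and 1.97 for EGLN3 in the untreated tumour, and 27.3, 14.4 and 623 in the refractory tumour. EGLN1 thus made up 69.2% of the family's summed FPKM in the untreated tumour, EGLN2 26.8% and EGLN3 3.97%. In the refractory tumour EGLN3 made up 93.7%, EGLN1 4.11% and EGLN2 2.17%. The summed FPKM of the 3 genes was 49.7 and 665, or 13.4 times as high. The ratio of EGLN3 to EGLN1 counts within a library, which does not depend on how the libraries are scaled, was 387 times as high in the refractory tumour (95% interval 342 to 439, counting error only).

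The 2 abundant alpha subunits differed in opposite directions. HIF1A (chromosome 14, 61695805 to 61747085), the broadly expressed alpha subunit, had 26002 and 11654 counts and stood at 340 and 196 CPM. It was lower in the refractory tumour by a factor of 1.73 (95% interval 1.69 to 1.77), a log2 of -0.79, above only 14.2% of described genes but inside the 2-fold mark. EPAS1 (chromosome 2, 46297912 to 46384660), the HIF-2 alpha subunit that is prominent in endothelium, kidney and gut, had 2074 and 4997 counts and stood at 27.1 and 84.2 CPM. It was 3.10-fold higher (95% interval 2.95 to 3.27). With 1 CPM added to both levels its log2 was 1.60, above 95.9% of described genes. The endothelial markers summed above were lower as a sum in the same library. KDR and TEK had 29 and 54 counts in the untreated and 0 in the refractory library. PECAM1 had 10 and 5, and CDH5 was at 0 in both. CD68 was higher in the refractory library. The part of these cell types in the EPAS1 result was not tested. HIF3A (chromosome 19, 46297077 to 46339622), whose isoforms include inhibitors of the other alpha subunits, had 3 counts in the untreated and 0 in the refractory library, at or under the floor of 3 counts (0.0392 and 0.0506 CPM), so no fold is given.

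HIF1A remained the more abundant alpha mRNA in both tumours, by a smaller margin in the refractory one. Its FPKM was 90.9 and 51.7, against 5.61 and 17.1 for EPAS1. EPAS1 accordingly made up 5.81% of the summed alpha FPKM in the untreated and 24.9% in the refractory tumour, and the sum itself was 96.6 and 68.8. The ratio of HIF1A to EPAS1 FPKM was 16.2 and 3.02. By counts, the ratio of EPAS1 to HIF1A was 5.38 times as high in the refractory tumour (95% interval 5.08 to 5.68).

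**Figure D2:**
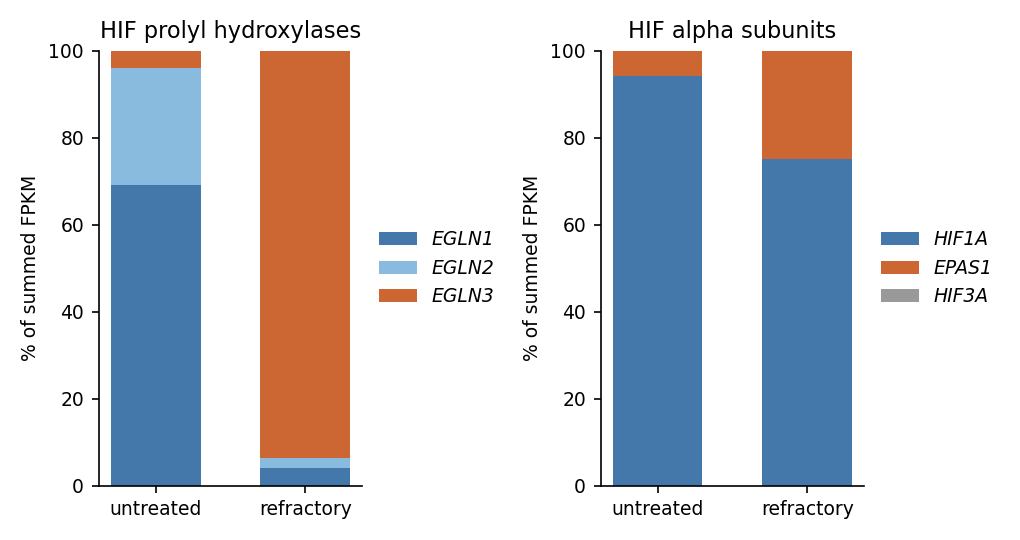
Share of each gene in the summed FPKM of its family, in percent, for the prolyl hydroxylases (left) and the alpha subunits (right), 1 library per bar. EGLN3 takes 3.97% of the left bar and 93.7% of the right bar in its panel, EPAS1 5.81% and 24.9% in its own, and HIF3A is too low to be seen.

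The partner and the remaining regulators differed little. ARNT (chromosome 1, 150812021 to 150876567) had 6995 and 4688 counts and stood at 91.5 and 79.0 CPM, a ratio of 0.864 (95% interval 0.832 to 0.896). HIF1AN (chromosome 10, 100535959 to 100548137), which hydroxylates an asparagine of the alpha subunit, had 8309 and 6349 counts and stood at 109 and 107 CPM, and its ratio of 0.985 had an interval that includes equality (0.953 to 1.02). VHL (chromosome 3, 10141848 to 10149965), the substrate receptor of the ligase, had 7306 and 6401 counts and stood at 95.6 and 107.9 CPM, a ratio of 1.13 (95% interval 1.09 to 1.17). The ratios of these 3 genes thus ran from 0.864 to 1.13, and of the 3 only HIF1AN differed by no more than counting error.

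The order of the members per length shifted mainly through EGLN3 and EPAS1. In the untreated tumour it ran HIF1A, EGLN1, VHL (22.6 FPKM), ARNT (20.6), HIF1AN (16.5), EGLN2, EPAS1, EGLN3 and HIF3A (0.00736), and no neighbours in this order had overlapping counting intervals. In the refractory tumour it ran EGLN3, HIF1A, EGLN1, VHL (25.1), ARNT (17.6), EPAS1 (17.1), HIF1AN (16.0), EGLN2 and HIF3A, which was listed at 0. There the intervals of ARNT (17.1 to 18.1) and EPAS1 (16.6 to 17.6) overlapped. EGLN3 moved from the 18.5 to the 99.3 percentile of FPKM among described genes and EPAS1 from the 36.2 to the 64.6 percentile, while HIF1A moved from 94.4 to 88.1. Spread between tumours is not known.

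Most described genes next to EGLN3 were also higher. Of its 20 nearest described neighbours on chromosome 14, 10 on each side, 19 were at least 2-fold higher and 0 lower. Over all described genes these shares were 9.80% and 11.0%. The 20 neighbours had a median log2 of 2.65 and a range from 0.75 to 5.94. Genes low in both libraries were not counted, while genes low only in the untreated one were, such as LOC100506157 (0.0262 and 3.93 CPM). The nearest described gene at lower coordinates, AKAP6, an anchoring protein of protein kinase A, stood at 2.90 and 17.9 CPM. NPAS3, whose coding span lies between AKAP6 and EGLN3, had 4 counts in each library and was not described. The nearest described gene at higher coordinates, SPTSSA, a small subunit of serine palmitoyltransferase, stood at 41.3 and 502 CPM. The side of higher coordinates differed more, with a median log2 of 4.58 against 2.22 on the other. The largest differences there were those of PPP2R3C (12.3 and 817 CPM), FAM177A1 (47.3 and 2060 CPM) and BAZ1A, a chromatin remodelling subunit gene (69.7 and 2473 CPM). The run ended soon after these at higher coordinates: PSMA6, NFKBIA, RALGAPA1 and BRMS1L, which lie 1.35 to 1.90 Mb from EGLN3 and nearer than most of the neighbours counted at lower coordinates, had log2 values of 0.62, 0.57, -0.66 and -0.14. EGLN3 exceeded all 20 neighbours and lay 5.25 above their median on the log2 scale. With genes of any level counted as neighbours, 10 on each side, the median was 0.63, and with 20 described genes on each side it was 1.69. How much of its difference EGLN3 shares with its surroundings was not tested.

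**Figure D3:**
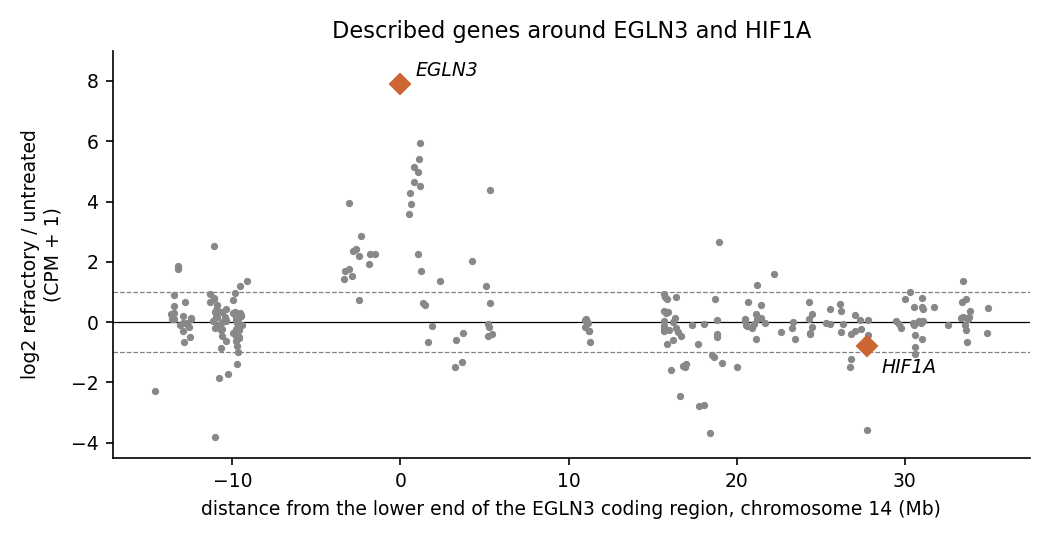
Log2 of refractory over untreated (1 CPM added) for described genes of chromosome 14, by distance in Mb from the lower end of the EGLN3 coding region, with dashed lines at 2-fold. Of the 10 nearest described genes on each side of EGLN3, 19 of 20 lie above the upper dashed line, with EGLN3 on top at 7.90, while HIF1A on the same chromosome, at -0.79, lies 27.8 Mb away, outside that stretch.

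The other members had no such surroundings. The 20 neighbours of EPAS1 had a median log2 of -0.09, 1 of them was at least 2-fold higher and 0 lower, and EPAS1 exceeded all 20. Its nearest described neighbours, the kinase gene PRKCE (7.66 and 10.4 CPM) and the proton pump subunit gene ATP6V1E2 (5.74 and 4.55 CPM), were both within 2-fold. HIF1A lay below 17 of its 20 neighbours, whose median was -0.08. Next to it, the non-coding RNA gene FLJ22447 stood at 12.9 and 0.152 CPM. For EGLN1, EGLN2, ARNT, HIF1AN and VHL the neighbour medians lay between -0.21 and 0.30, and the distance of the member from its own median ran from -0.36 (EGLN1) to 0.00 (ARNT). Around HIF3A the median was -0.20, with 1 neighbour higher and 5 lower.

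**Figure D4:**
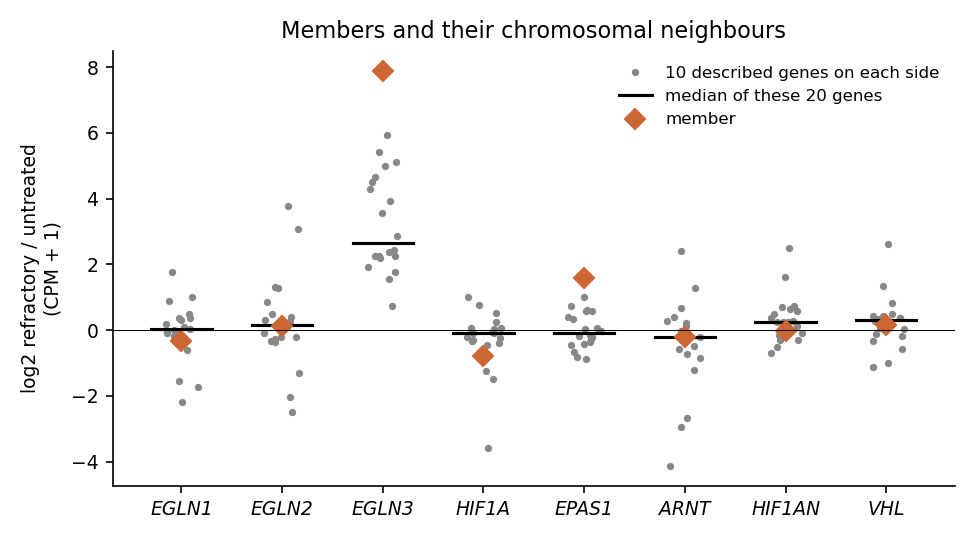
Log2 of refractory over untreated (1 CPM added) for each described member (diamond), its 20 nearest described genes on the chromosome (dots) and their median (line). EGLN3 and EPAS1 lie above all 20 of their neighbours, but only around EGLN3 is the median far from 0, at 2.65.

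Some reads can belong to other loci. The read-through transcript RAB4B-EGLN2 shares exons with EGLN2 and had 58 counts in the untreated and 0 in the refractory library, at least 15.0-fold lower against a floor of 3 counts, beside 1891 and 1614 for EGLN2 itself. HIF1A overlaps the antisense gene HIF1A-AS2, listed with 86 and 34 counts, and it is not known here whether counting used strand, so reads of the pair may not be told apart. HIF1AN likewise overlaps NDUFB8 on the other strand in GENCODE 29. The same annotation holds the processed pseudogenes EGLN3P1 on chromosome 12 and EGLN1P1 on chromosome 15, which can share reads with their parents. In it the longest EGLN3 model also overlaps SPTSSA and the processed pseudogene AL356806.1 on the same strand, and the antisense gene EGLN3-AS1 on the other.

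Genes closest to the 2 higher members were found by distance in the plane of log2 CPM plus 1 in both libraries, so over 2 samples only. Closest to EGLN3 were CDH17 (3.44 and 629 CPM, distance 0.74), CTSE (1.78 and 499 CPM, distance 1.27) and PPP2R3C (12.3 and 817 CPM, distance 1.64), the last being one of its neighbours on chromosome 14. No gene was as close to EGLN3 as the nearest ones were to EPAS1, which were S100P (26.1 and 82.8 CPM, distance 0.06), KLHL23 (27.8 and 79.3 CPM, distance 0.09) and MAEA (28.6 and 80.8 CPM, distance 0.10).

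The partners of VHL and the proteins that act on HIF outside it did not reach a 2-fold difference. All 7 ligase partners and ubiquitin-conjugating enzymes were described, with 0 higher and 0 lower and a median log2 of 0.27, where 20.8% of all described genes passed in either direction. The scaffold CUL2 stood at 86.7 and 90.0 CPM, the elongins TCEB1 and TCEB2 at 84.2 and 95.8 CPM and at 30.0 and 36.9 CPM, and UBE2D3, the most abundant, at 480 and 527 CPM. Of 20 other stability regulators 0 passed in either direction (median 0.11), with the chaperone gene HSP90AB1 at 2554 and 2510 CPM. The largest differences in each direction lay just inside the mark: FKBP8 (49.6 and 25.7 CPM, log2 -0.92) and WSB1 (168 and 313 CPM, log2 0.89). Of 8 coactivators and CITED genes 7 were described and 0 passed (median -0.15). The acetyltransferase gene EP300 stood at 200.4 and 150.9 CPM and CITED2, whose protein competes with HIF for EP300 and is encoded by a HIF target gene, at 18.2 and 29.4 CPM.

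Among other bHLH-PAS proteins, the family to which the HIF subunits belong, the ARNT paralogue ARNT2 was largely missing from the refractory tumour. It had 2095 counts in the untreated and 17 in the refractory library, or 27.4 and 0.287 CPM, lower by a factor of 95.6 (95% interval 59.6 to 164). ARNT, by contrast, differed by a factor of 1.16. SIM2 stood at 86.2 and 35.6 CPM and the clock gene ARNTL (BMAL1) at 4.41 and 11.2 CPM. Of 15 genes in this list 11 were described, with 1 higher, 2 lower and a median log2 of -0.11, against 9.80% higher and 11.0% lower among all described genes.

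Lists of other hydroxylases, of demethylases and of enzymes of 2-oxoglutarate, succinate and fumarate were mixed. Of 15 collagen and other prolyl, lysyl or asparaginyl hydroxylases 13 were described, 3 of them higher and 0 lower, against 9.80% and 11.0% of all described genes, with a median log2 of 0.52: LEPREL1 (P3H2, a collagen prolyl hydroxylase) stood at 1.27 and 8.88 CPM, and PLOD1, a collagen lysyl hydroxylase, at 29.2 and 86.2 CPM. P4HA1, a catalytic subunit of collagen prolyl hydroxylase, stood at 76.1 and 155 CPM, a log2 of 1.02, just past the mark. With total-count scaling, a pseudocount of 5 CPM, FPKM or a filter of 10 CPM, 2 genes of this list were higher. With the median of the 20 nearest genes subtracted from each gene, a step chosen after the data were seen, 1 of the 13 was higher. The share of all genes past 2-fold after that step was not computed. The JmjC demethylases and TET enzymes, which also use 2-oxoglutarate and oxygen, had 0 higher and 3 lower of 21 (median -0.22), against 9.80% and 11.0% of all described genes, with TET1 at 4.39 and 0.624 CPM and KDM7A at 72.1 and 27.98 CPM. Of 14 enzymes that make or use 2-oxoglutarate, succinate and fumarate 2 were higher and 0 lower (median 0.43), against 9.80% and 11.0% of all described genes, IDH2 at 16.9 and 57.1 CPM and the succinate dehydrogenase subunit SDHB at 29.2 and 64.1 CPM. With the local median subtracted, 1 of the 14 was higher.

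HIF target genes were the list with the most members past the 2-fold mark. Of 35 listed targets, members left out, 32 were described, with 15 higher, 1 lower and 16 between, against 9.80% higher and 11.0% lower among all described genes, and a median log2 of 0.98. The stress gene NDRG1 stood at 65.0 and 478 CPM and was 7.35-fold higher (95% interval 7.13 to 7.58). VEGFA, the endothelial growth factor, stood at 82.9 and 347 CPM, and CA9, a carbonic anhydrase often used as a marker of HIF-1, at 0.523 and 5.97 CPM. CA9 and ANGPTL4 (0.667 and 3.66 CPM), also among the 15, were described only through the refractory library. Others were nearly level, such as the glucose transporter gene SLC2A1 (810 and 764 CPM), and TMEM45A was lower (6.41 and 2.24 CPM). The list was written with earlier results of these data known, so its count is a description. With local medians subtracted 13 of the 32 were higher. That step was not run on all genes, so the 9.80% is not a background for this count.

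Iron genes known as HIF-2 targets of the intestine, with ferritins and the transferrin receptor, went both ways. SLC40A1, the iron exporter ferroportin, stood at 23.0 and 255 CPM and was 11.1-fold higher (95% interval 10.5 to 11.7). CYBRD1, the duodenal ferric reductase, stood at 61.5 and 2.02 CPM and was lower by a factor of 30.4 (95% interval 25.4 to 36.8). SLC11A2, the importer DMT1, stood at 69.8 and 86.4 CPM. The ferritin light chain gene FTL, which has many processed pseudogenes, stood at 248 and 909 CPM. Of the 7 genes, all described, 2 were higher and 1 lower (median 0.48), against 9.80% and 11.0% of all described genes.

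**Figure D5:**
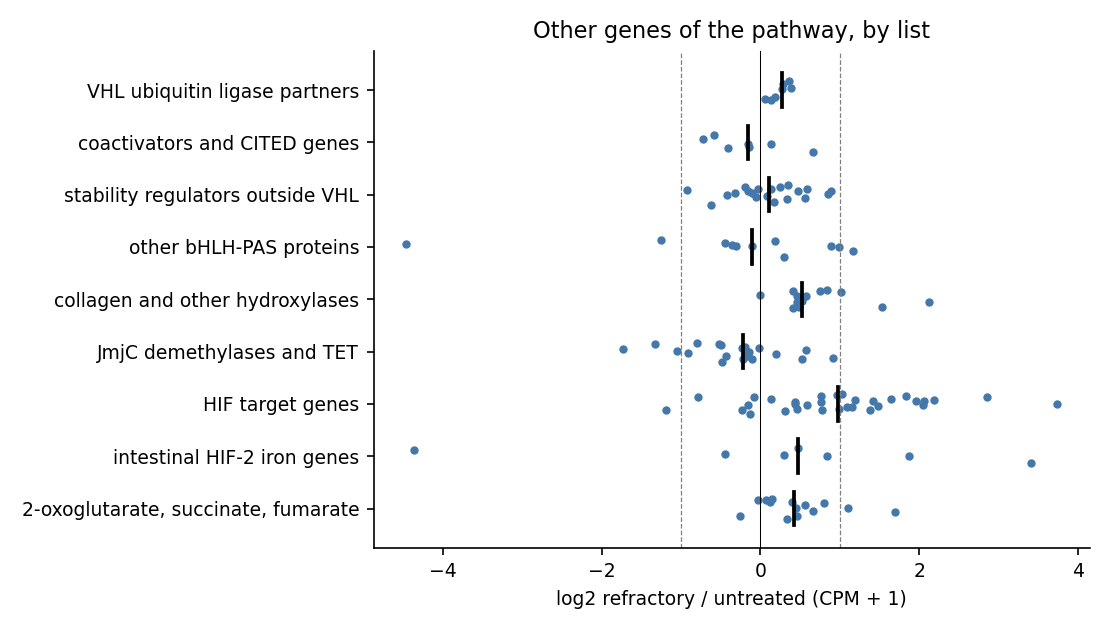
Log2 of refractory over untreated (1 CPM added) for the described genes of the 9 pathway lists, 1 dot per gene, with the list median as a black bar and dashed lines at 2-fold. The HIF target list has the highest median, 0.98, the lists of VHL partners, stability regulators and coactivators stay between the dashed lines, and the far left dots are ARNT2 and CYBRD1.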

How the data were processed

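RNA of 2 NCI-N87 xenografts, 1 untreated and 1 refractory, was compared (TruSeq mRNA libraries, per the labels), grouped by the treatment and title labels. The authors deposited 1 table of expected counts and FPKM per library, per the file headers, with a log2 fold change and a p-value per gene. Expected counts are estimates, and 92.8% (untreated) and 93.2% (refractory) of the values were whole to 2 decimals. The submitters' processing notes name the builds GRCh38 and GRCm38 and, as tools, RSEM 1.2.28, STAR 2.7.0e, edgeR 3.26.8 and bcl2fastq 2.20. What each did, how mouse reads and strand were treated, and which annotation was used was not stated in the sources used here. The authors' deposited log2 values served only to check the direction, and their p-values were not used.

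Counts were rounded and scaled by TMM (edgeR 4.0.16, R 4.3.3; factors 1.010 and 0.990), then put through Python 3.11.15 with scipy 1.17.1. The calculation was tested on simulated data drawn with Poisson counting error alone, the error that its intervals assume. That test therefore says nothing on spread between tumours. With 1 library per group no test was possible. Each CPM ratio has an exact 95% interval (Clopper-Pearson on 1 count given the sum of both). Without molecular identifiers reads are not independent molecules, so intervals and the floor of 3 counts cover counting error only. Within-library count ratios carry normal intervals on the log scale. Coordinates are coding spans from the deposited table.

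The members and the 9 pathway and 5 marker lists were chosen with earlier results of these data known. Named are all members, ERBB2, up to 2 genes per list and direction with the largest change past 2-fold (otherwise the most abundant), the nearest neighbours of members past 2-fold and the 3 genes closest to them in level. Some results under this rule are not reported here. Other genes were chosen after their values were seen. Alternatives were other scalings, pseudocounts, filters, thresholds, neighbour numbers and FPKM, and, added after the data were seen, local medians subtracted. A comparison of protein sequences was planned and not run.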

Additional observations from a re-analysis of the deposited data

How the results depend on the processing

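No paired analysis was possible because each group holds 1 library, and for the same reason no replicate could be left out. Scaling to the total count, by median of ratios or without the 50 most abundant genes moved the median of all genes by -0.03 or less in size and changed no member count. Of 48 recomputed member log2 values 43 stayed close to the value in the report, as did 20 of 22 member counts. The same label went to 169 of 198 list counts, 73 of 90 neighbour medians and 1 of 10 family shares. No value past the 2-fold mark changed sign. For list counts the label was loose. Against 15 higher HIF targets in the main result, it took in 10 with a pseudocount of 5 CPM and 21 at the 1.5-fold threshold. It also took in 2 higher collagen hydroxylases, against 3, with that pseudocount. List counts that were 0 and stayed 0 are among the 169, so this number overstates how stable the lists were. The neighbour medians of EGLN2 (no filter) and EPAS1 (filter of 10 CPM), both near 0, did change sign. The cause of each shift below was not tested.

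At a 1.5-fold threshold 1 member was lower (HIF1A), and the lists gave 1 higher and 2 lower coactivators, 2 higher and 2 lower stability regulators, 3 higher bHLH-PAS genes, 5 higher collagen hydroxylases, 1 higher and 5 lower JmjC or TET genes, 2 lower HIF targets and 4 higher 2-oxoglutarate enzymes, with 2755 of all genes higher and 2677 lower. At 4-fold 1 member was higher (EGLN3), with 0 higher and 1 lower bHLH-PAS genes, 1 higher collagen hydroxylase, 0 lower JmjC or TET genes, 5 higher and 0 lower HIF targets, 1 higher iron gene and 0 higher 2-oxoglutarate enzymes, and 360 of all genes higher and 504 lower.

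With a pseudocount of 0.1 CPM the log2 of EGLN3 was 8.23 and its neighbour median was 3.27. At that setting 2 bHLH-PAS genes and 1 JmjC or TET gene were higher, beside 1683 of 14167 genes higher and 1916 lower. With a pseudocount of 5 CPM the log2 was 6.98 for EGLN3 and 1.47 for EPAS1. The neighbour median was then 2.47 for EGLN3 and 0.19 for VHL, 0 bHLH-PAS genes were higher and 1 JmjC or TET gene was lower. HIF targets had 10 higher and 0 lower, against 15 and 1 in the main result, and a median log2 of 0.75. Of all genes 821 were higher and 840 lower. On the deposited FPKM the log2 was 7.71 for EGLN3 and 1.45 for EPAS1, and the neighbour median of EGLN3 was 2.22. On FPKM 0 bHLH-PAS genes were higher, beside 1165 of 13419 genes higher and 1205 lower. With a filter of 10 CPM 10 HIF targets were higher and 0 lower, beside 978 of 10356 genes higher and 921 lower. The neighbour median with this filter was 3.22 for EGLN3 and 0.084 for EPAS1. With no filter the neighbour median was 0.63 for EGLN3, -0.058 for EGLN2, -0.028 for HIF3A, -0.045 for ARNT and 0.00 for VHL. With 5 neighbours on each side it was 3.22 for EGLN3, 0.26 for EGLN2, -0.19 for EPAS1 and -0.77 for HIF3A, and with 20 it was 1.69 for EGLN3 and -0.018 for ARNT.

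With expected counts in place of FPKM the untreated shares were 84.1% for EGLN1, 13.99% for EGLN2, 1.93% for EGLN3, 92.6% for HIF1A and 7.39% for EPAS1. The refractory shares were 9.88% for EGLN1, 87.9% for EGLN3, 69.99% for HIF1A and 30.01% for EPAS1. With the median of the 20 nearest genes subtracted, chosen after the data were seen, 1 VHL partner, 0 bHLH-PAS genes, 1 collagen hydroxylase and 1 2-oxoglutarate enzyme were higher. This step was not run on all genes, so no share of all genes stands beside these counts. Depth limits HIF3A, whose counts in both libraries lay at or under the floor of 3.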
